A study of Homo sapiens with 40 samples.

Results

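The integrin and laminin genes were examined as a group of 31 genes, made up of 13 integrin alpha chains, 8 integrin beta chains and 10 laminin chains, in BT474 and BT474R breast cancer cells. The genes were chosen by name, with earlier results of these data known, and regions were then taken by position alone. The ATAC-seq peaks of all 40 libraries were merged where they overlapped by 1 bp or more. Merged regions found in at least 2 libraries were kept. A region was assigned to a gene when its midpoint lay in the gene body or within 20 kb of either end. This gave 199 regions of 71600 in the whole data set, with at least 1 region for each of the 31 genes. BT474 is an established HER2-overexpressing ductal carcinoma line, and BT474R is a single trastuzumab-resistant clone of BT474 that was cultured with the antibody. All cells of both lines were serum starved before treatment. In each line, untreated cells were collected at 0 h (baseline), and cells given epidermal growth factor (EGF-BT474, EGF-BT474R), heregulin (HRG-BT474, HRG-BT474R) or vehicle (control) were collected after 1, 12 and 24 h. Each of the 20 groups held 2 libraries. The authors state that treatments were done in duplicate, without saying how far the duplicates were independent, and nothing in the labels ties them to separate cultures. The p-values therefore measure only the spread between these libraries, which may be technical.

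Integrins are pairs of an alpha and a beta chain that span the plasma membrane and bind the matrix outside the cell, and laminins are trimers of an alpha, a beta and a gamma chain that form the basement membrane on which epithelial cells sit. ITGA6 pairs with ITGB4 in hemidesmosomes or with ITGB1, and ITGA3 pairs with ITGB1; both alpha chains are epithelial laminin receptors. ITGAV pairs with ITGB1, ITGB3, ITGB5, ITGB6 or ITGB8 to bind fibronectin, vitronectin or latent TGF-beta, ITGA5 with ITGB1 is the main fibronectin receptor, and LAMA3 and LAMB3 encode chains of laminin-332, the laminin of epithelial anchorage. Adhesion through integrins and signalling from EGFR, HER2 and HER3 are known to be coupled in breast epithelium.

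ATAC-seq marks open chromatin through insertion of sequencing adapters by a transposase, and the peaks of each library come as a separate list. A region was called open in a library that had a peak there. Lack of a peak does not show closed chromatin, because the lists carry no read totals and the depth of each library was unknown. In such bulk samples, fewer cells with an open region and less opening per cell cannot be told apart. The score of each peak was turned into a rank percentile within its list, with 100 for the highest score. The lists held 47571 to 56846 peaks in BT474 and 32479 to 56494 in BT474R. The 4 shortest lists were the control and EGF lists of BT474R at 12 h, with 32479 and 40331 peaks in control and 38205 and 37476 with EGF. The promoters of 10 of 10 epithelial and luminal markers, among them EPCAM, KRT8 and ERBB2, were open in all 40 libraries, while 7 of 11 promoters of immune, endothelial and stromal markers were open in none and 2 in all 40. Of 5 basal markers, 1 promoter was open in all 40 libraries and that of KRT14 in none.

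The sequences around regions that opened or rose in rank after a ligand are shown first, since the results below turn on them. For each region, 201 bases of the plus strand of hg38 centred on the summit of its highest-scoring peak are given, with matches to the AP-1 consensus TGANTCA, read on both strands, in capitals. AP-1 is the FOS and JUN dimer that is induced by growth factors. The first 5 regions are among the 6 called by presence between a ligand and control (Fisher's exact test, unadjusted p under 0.05). The last 3 were chosen after their values were seen. By rank, the region of ITGA3 had the smallest p in BT474 and that of ITGA6 in BT474R, and that of ITGB5 had the largest change. Regions of ITGB6 and LAMA5 that changed more than that of ITGA3 are not shown.
ITGA5, upstream, chr12:54423255-54423455: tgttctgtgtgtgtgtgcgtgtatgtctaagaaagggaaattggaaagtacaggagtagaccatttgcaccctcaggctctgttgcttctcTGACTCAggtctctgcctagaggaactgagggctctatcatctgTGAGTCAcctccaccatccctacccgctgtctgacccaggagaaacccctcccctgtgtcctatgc
ITGAV, upstream, chr2:186575396-186575596: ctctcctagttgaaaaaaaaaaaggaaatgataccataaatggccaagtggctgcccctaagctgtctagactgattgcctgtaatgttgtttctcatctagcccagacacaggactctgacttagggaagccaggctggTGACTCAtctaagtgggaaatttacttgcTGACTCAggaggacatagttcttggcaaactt
ITGA8, intron, chr10:15518280-15518480: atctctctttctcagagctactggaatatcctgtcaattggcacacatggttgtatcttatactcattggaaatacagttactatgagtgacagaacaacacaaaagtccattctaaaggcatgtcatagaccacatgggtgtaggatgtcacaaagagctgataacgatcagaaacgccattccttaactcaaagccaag
ITGA2, upstream, chr5:52987812-52988012: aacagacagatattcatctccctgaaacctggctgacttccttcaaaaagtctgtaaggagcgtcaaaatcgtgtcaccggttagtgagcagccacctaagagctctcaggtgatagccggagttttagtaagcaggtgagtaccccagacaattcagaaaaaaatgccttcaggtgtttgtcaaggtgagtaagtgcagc
LAMA3, intron, chr18:23719997-23720197: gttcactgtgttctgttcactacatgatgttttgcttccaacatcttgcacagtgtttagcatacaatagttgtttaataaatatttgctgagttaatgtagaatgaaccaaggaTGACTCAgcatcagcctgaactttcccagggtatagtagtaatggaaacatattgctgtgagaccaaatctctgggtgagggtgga
ITGA3, upstream, chr17:50051124-50051324: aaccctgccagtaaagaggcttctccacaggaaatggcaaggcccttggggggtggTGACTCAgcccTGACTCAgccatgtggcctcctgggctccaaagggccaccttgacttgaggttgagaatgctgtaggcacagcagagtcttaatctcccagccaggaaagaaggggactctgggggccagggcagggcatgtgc
ITGB5, intron, chr3:124878598-124878798: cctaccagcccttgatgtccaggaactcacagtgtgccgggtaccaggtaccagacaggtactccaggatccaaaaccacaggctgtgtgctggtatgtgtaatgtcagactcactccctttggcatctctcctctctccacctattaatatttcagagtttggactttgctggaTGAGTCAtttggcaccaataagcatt
ITGA6, intron, chr2:172442115-172442315: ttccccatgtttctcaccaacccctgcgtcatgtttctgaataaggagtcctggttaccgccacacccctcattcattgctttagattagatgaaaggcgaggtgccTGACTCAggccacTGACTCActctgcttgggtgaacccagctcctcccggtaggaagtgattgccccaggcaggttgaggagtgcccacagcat

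An AP-1 match lay within 100 bases of the summit in 3 of these 5 opened regions. The ITGA5 and ITGAV regions held 2 matches each, the LAMA3 region held 1, and those of ITGA8 and ITGA2 held 0. Among the 24 regions of these genes that were higher in rank after a ligand in at least 1 comparison (tests below), 14 (58.3%) held a match, against 7 of 79 (8.86%) regions tested by rank and called in none of the 4 ligand comparisons and 38 of 199 (19.1%) regions of these genes in all. The same letters were present in 16.3% of all 71600 regions and in 45.9% of the 6524 regions of the whole data set that were higher in rank after a ligand, so the share among the integrin and laminin regions is to be read against the latter. Regions of these genes that were lower in rank held a match in 1 of 13 cases (7.69%), and all lower regions in 3.14%. The Sp1 box GGGCGG lay in 3 of the 24 higher regions, in 6 of the 13 lower regions and in 19.3% of all regions. For the TEAD letters GGAATG the counts were 3 of 24 and 3 of 13, with 13.9% of all regions. The GRHL letters AACCNGTT lay in 1 of the 24 higher regions and in 3.87% of all, the GATA-factor letters AGATAA in 2 and 8.93%, the FOXA letters TGTTTAC in 0 and 8.5%, and the ETS letters CCGGAAGT in 0 and 1.34%. The motifs were chosen with earlier results of these data known. A match describes the sequence only, and no binding was measured.

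The layout of the regions differed widely between the genes. Of the 199 regions, 99 lay in introns, 26 over exons, 39 upstream and 35 downstream of the gene. A share of 38.2% of them (76 regions) was open in all 40 libraries, against 35.1% of all 71600 regions. ITGB5, which encodes a vitronectin-binding beta chain, had the most with 20 regions, followed by ITGA3 and LAMA3 with 14 each and ITGA5 and ITGA9 with 11 each. ITGA2B, the platelet alpha chain, ITGB8 and LAMA1 had 1 each. The regions of 6 genes (ITGA2B, ITGA4, ITGA8, ITGA10, ITGB7 and LAMA1) included none within 1 kb of an annotated start of the gene itself. For ITGA10 and ITGB7, 3 of 4 and 4 of 6 regions lay at the promoter of another gene, such as RARG for ITGB7, and may belong to that gene. The same holds for several downstream regions of ITGA5, at the ZNF385A promoter, and for the only ITGA2B region, at that of FAM171A2.

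**Figure D1:**
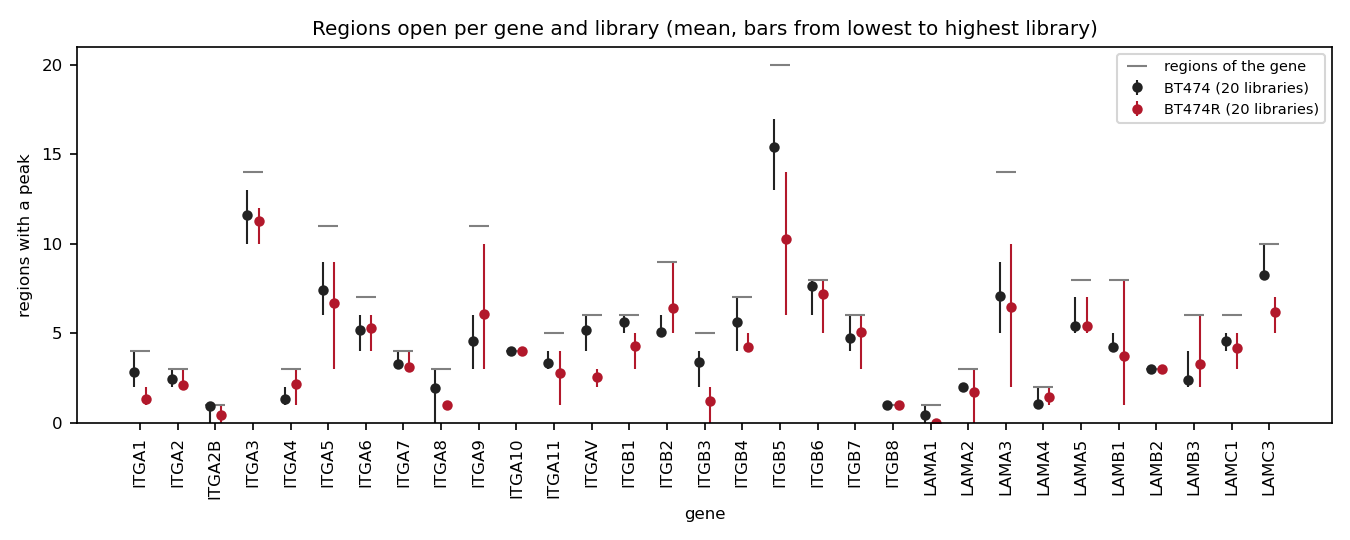
Regions with a peak (y axis, number) for each of the 31 genes (x axis). Points are means over the 20 libraries of BT474 (black) and of BT474R (red), bars run from the lowest to the highest library, and grey dashes give the number of regions of the gene; ITGB5 and ITGAV had fewer open regions in BT474R than in BT474 and ITGA10, ITGB8 and LAMB2 had every region open in every library.

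Of the 25 genes with a promoter region (the region nearest the 5′ end of the gene among those within 1 kb of an annotated start), 12 had it open in all 40 libraries and 13 did not. The highest ranks belonged to ITGA3, at chr17:50054783-50057940, with a median rank percentile of 99.9 in BT474 and 99.8 in BT474R, and to ITGB8, which binds latent TGF-beta with ITGAV, at chr7:20329340-20332076, with 99.2 and 98.8. Also high were ITGB5 with 97.2 and 90.5, ITGAV with 93.0 and 91.8, LAMC1, the common laminin gamma chain, with 86.9 and 88.4, ITGA6 with 85.1 and 78.5, and ITGB4 with 81.6 and 86.2. At the other end, the start of ITGA5 (chr12:54419148-54419587) had a peak in 10 of 20 BT474 and 2 of 20 BT474R libraries, at a median percentile of 6.85 and 2.45. The start of ITGA1, a collagen receptor chain that shares this region with the PELO promoter, was open in 7 of 20 and 0 of 20 libraries. That of ITGA9 was open in 1 of 20 BT474 and 12 of 20 BT474R libraries. Start sites of these genes thus ranged from the top percentile of a list to its lowest ranks.

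Several start sites ranked lower, or were missed more often, in BT474R. By presence between the lines (Fisher's exact test, described below), those of ITGB3 and LAMB1 were called (adjusted p 0.000125 and 0.000357). In the same test, the start sites of ITGA1 and ITGA5, given above, were called as less often open in BT474R (adjusted p 0.0133 and 0.0215). That of ITGA9 was called as more often open (adjusted p 0.000953). Those of ITGA11 and ITGB6 were not (adjusted p 0.0597 and 0.452), and the others missed here could not be tested. All BT474R misses of ITGB6 and most of ITGA11 were at 12 h, where the lists were shortest. The part of list length was not tested. That of ITGB3 was open in 20 of 20 BT474 and 8 of 20 BT474R libraries, at median percentiles of 30.98 and 7.78 over the libraries with a peak. For LAMB1 the counts were 20 and 9 at 63.3 and 19.4, for ITGA11, a collagen receptor chain of fibroblasts, 20 and 15 at 33.9 and 16.8, for LAMC3 20 and 17 at 53.9 and 24.7, and for LAMA3 20 and 18 at 60.3 and 27.9. Of the other LAMA3 regions within 1 kb of an annotated start, that at 183.5 kb was open in all 40 libraries, at 73.3 and 75.4. That at 138.4 kb was open in 15 BT474 and 0 BT474R libraries. LAMA2, the alpha chain of muscle laminin, had its only start region at an alternative transcript start 618.5 kb into the gene, open in 20 and 18 libraries at 64.0 and 26.2. The start regions of LAMA4 (20 and 19 libraries, 51.2 and 39.0) and ITGB1 (20 and 19 libraries, 61.4 and 51.3) were missed in 1 BT474R library each. Another ITGB1 region within 1 kb of an annotated start, 47.6 kb into the gene, was open in all 40 libraries, at 90.8 and 86.9. ITGB2 (20 and 17 libraries, 43.5 and 45.2) and ITGB6 (18 and 15 libraries, 19.9 and 21.2) were missed more often in BT474R at a median that was not lower. The start regions of LAMA5 (79.5 and 63.9), LAMB2 (75.9 and 72.0), ITGA2 (75.8 and 63.1), ITGA7, which shares its region with the BLOC1S1 promoter (71.2 and 39.6), and LAMB3 (64.9 and 70.7) were open in all 40 libraries, as were the 7 given first. LAMB3 was, with ITGB4 and LAMC1, one of the 3 genes among these 12 with a higher median in BT474R.

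The number of regions of these genes that were open differed between the arms, and so did the length of the lists. In BT474, control libraries had 132 to 139 of the 199 regions open (median 136.5), EGF libraries 140 to 154 (median 147.5) and HRG libraries 138 to 150 (median 140). The EGF libraries did not overlap the control libraries, and the HRG libraries did. The median list length moved in the same order, with 49576.5 peaks in control, 53927 in EGF and 52595.5 in HRG libraries, and the part of list length in the number of open regions was not tested. In BT474, 20.1% of the 199 regions were open in more EGF than control libraries and 6.53% in fewer. Of all regions, 18.5% and 7.85% were. For HRG the shares were 15.1% and 13.1%, against 15.3% and 12.7% of all regions. In BT474R the arms overlapped: control libraries had 87 to 147 regions open, EGF 101 to 141 and HRG 113 to 153, and the lowest value, 87, came from the shortest list, a 12 h control.

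**Figure D2:**
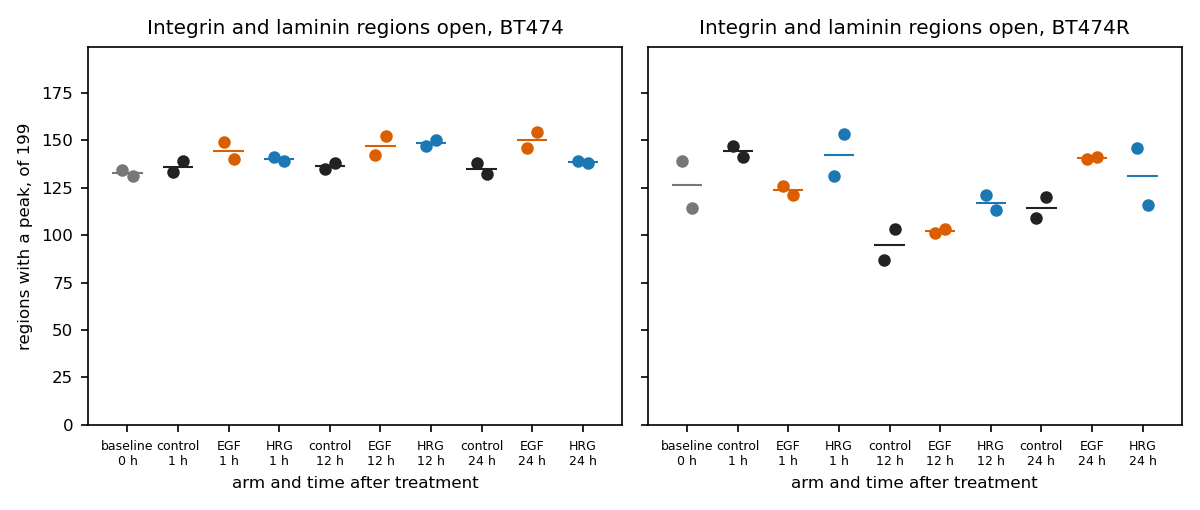
Integrin and laminin regions with a peak, of 199 (y axis), in each library of BT474 (left) and BT474R (right), by arm and time (x axis). Points are libraries and lines are the means of the 2 libraries; BT474 libraries lie between 131 and 154, while BT474R libraries spread from 87 to 153 with the lowest values at 12 h.

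Whether a ligand opened or closed regions of these genes was tested by the number of libraries with a peak, 6 ligand against 6 control libraries of the same line (Fisher's exact test, two-sided, called at an unadjusted p under 0.05). Only regions open in an intermediate number of the 12 libraries could be called. EGF and HRG were compared with the same control libraries, so their results are not independent of each other. In EGF-BT474, 2 of 11 such regions were called, both more often open with EGF. That is 18.2%, against a background of 19% of all 4492 testable regions, or 18.3% called as more often open. In HRG-BT474, 5 of 17 were called, all more often open, with a background of 24.7% (20% more often open). In EGF-BT474R the count was 2 of 23, with a background of 4.08%, and in HRG-BT474R 1 of 19, with a background of 2.31%. None was called as less often open with a ligand in any of the 4 comparisons, where the background was 0.69%, 4.69%, 0.411% and 0% of testable regions. The shares in BT474 were close to the background.

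The ITGA5 region lay 4.08 kb upstream of the gene (chr12:54423194-54423500). In BT474 it was open in 0 of 6 control libraries and in 6 of 6 libraries with either ligand. Its rank percentile was 3.08 to 31.6 (median 22.1) after EGF and 10.2 to 27.8 (median 23.01) after HRG. The exact p was 0.00216 in both comparisons, with adjusted p-values (Benjamini-Hochberg over all testable regions) of 0.0335 and 0.0241. In BT474R it was open in 1 of 6 control libraries, at percentile 8.56, and in 6 of 6 EGF libraries, at 13.4 to 45.2 (median 26.2), where Fisher's exact p was 0.0152 and the adjusted p 0.372. With HRG it was open in 5 of 6 BT474R libraries at 2.38 to 25.9 (median 13.7), for an exact p of 0.0801. It was open in no baseline library of either line, and the 24 h EGF-BT474R libraries, at 44.9 and 45.2, were the highest. This distal region thus had peaks after EGF while the start of ITGA5 ranked low or had none.

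ITGAV had an opened region 14.5 kb upstream (chr2:186575344-186575623). It was open in 0 of 6 control libraries of BT474, in 6 of 6 EGF libraries at percentiles of 1.37 to 23.3 (median 11.6) and in 5 of 6 HRG libraries at 9.58 to 25.4 (median 12.3). Fisher's exact p was 0.00216 for EGF (adjusted p 0.0335) and 0.0152 for HRG (adjusted p 0.0615). The highest values came at 1 h with both ligands. In BT474R the region had a peak in 1 of 20 libraries, after EGF at 24 h. The difference in its ligand response between the lines was not tested.

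In ITGA8, which pairs with ITGB1 and is best known from kidney and smooth muscle, an intronic region (chr10:15518233-15518543) was open in 0 of 6 control, 6 of 6 HRG and 4 of 6 EGF libraries of BT474, and in 1 of 2 baseline libraries. The percentiles with HRG were 1.17 to 28.5 (median 12.15), and Fisher's exact p for HRG was 0.00216 (adjusted p 0.0241). No BT474R library had a peak there. ITGA2, a collagen receptor chain, had a region 1.35 kb upstream (chr5:52987691-52988281) that was open in 0 of 6 control, 5 of 6 HRG and 4 of 6 EGF libraries of BT474. It had the highest ranks of the 6 regions, with 53.3 and 58.0 after HRG and 46.8 and 44.8 after EGF at 1 h, and at 24 h it was listed in 1 HRG library, at 12.97, and in no EGF library. The exact p for HRG was 0.0152 (adjusted p 0.0615). In BT474R it had peaks only in the 2 EGF libraries at 24 h, at 31.5 and 32.2.

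The remaining opened regions lay in introns of LAMA3. At 30.5 kb from the gene start (chr18:23719742-23720195), a region was open in 0 of 6 control and 5 of 6 HRG libraries of BT474 at percentiles of 0.662 to 21.4 (median 18.6), with an exact p of 0.0152 (adjusted p 0.0615), and in 3 of 6 EGF libraries. At 6.07 kb, a region was open in 1 of 6 control libraries of BT474R and in 6 of 6 libraries with either ligand. Its percentiles were 3.18 to 46.9 (median 14.5) after EGF and 1.94 to 30.6 (median 15.5) after HRG, and the 24 h EGF libraries were the highest at 46.9 and 41.7. The exact p was 0.0152 in both comparisons, with adjusted p-values of 0.372 and 0.657. In BT474 this region was open in 0 of 6 control, 2 of 6 EGF and 4 of 6 HRG libraries.

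These calls depended on weak peaks being listed. None of the 10 calls held when peaks were limited to scores of at least 400, where the lists otherwise began at 200, and none held when each list was limited to its 32479 highest peaks. Under that limit the ITGA5 region had a peak in 0 ligand and 0 control libraries of BT474 and in 4 EGF and 0 control libraries of BT474R. With scores of at least 400, other integrin and laminin regions were called instead, 4 in each comparison of BT474, 2 in EGF-BT474R and 1 in HRG-BT474R. The 3 calls in BT474R and the HRG-BT474 calls of ITGA2 and ITGAV did not pass without the 12 h libraries either.

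**Figure D3:**
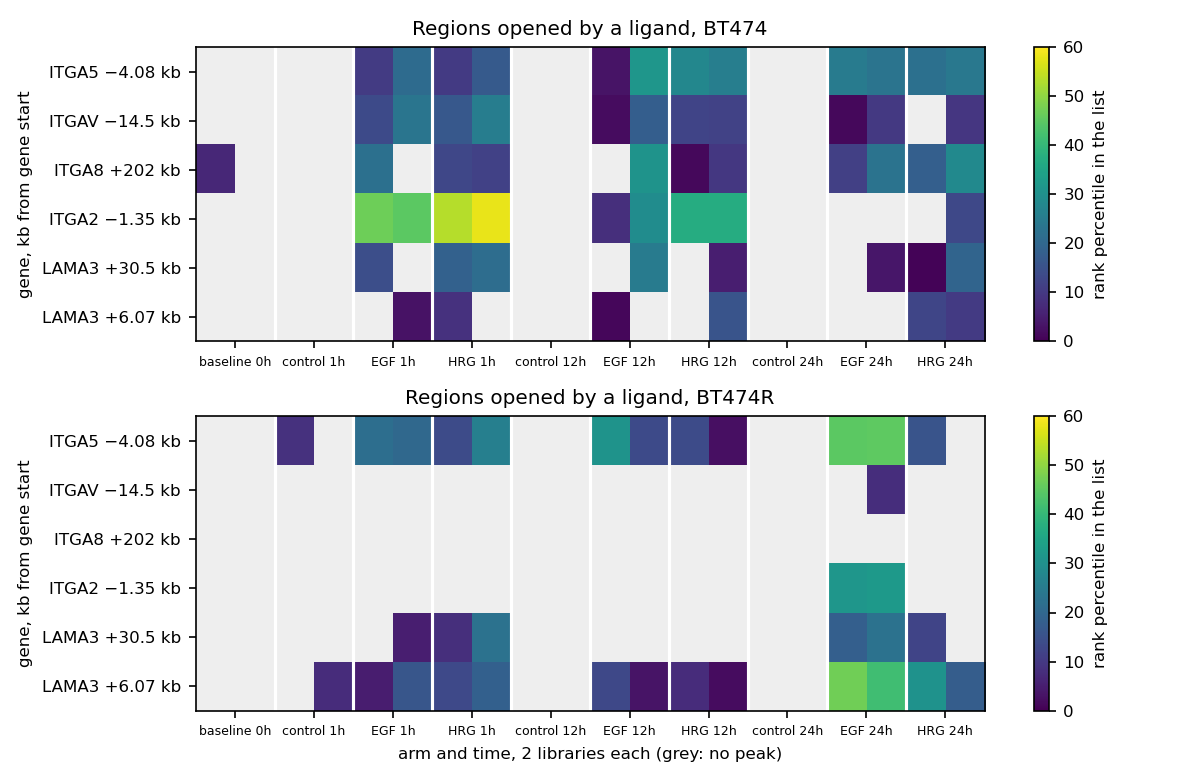
Rank percentile within the list (colour, 0 to 60) of the 6 regions opened by a ligand (rows, with the distance from the gene start in kb) in each library of BT474 (top) and BT474R (bottom), ordered by time and arm (columns, 2 libraries each). Grey means no peak: the BT474 control columns are grey throughout, and in BT474R 2 tiles of the control columns, both at 1 h, are coloured.

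Regions open in every library of a line cannot change in presence, so their rank was compared instead. Of the 199 regions, 111 were open in all 20 BT474 libraries, 81 in all 20 BT474R libraries and 76 in all 40. For these tests the scores were ranked again among the shared regions only, and the differences below, with standard errors, are in percentile points of that ranking (limma across all shared regions, ligand minus control averaged over 1, 12 and 24 h, adjusted p under 0.05). The percentiles quoted for single libraries remain those within the whole list. A percentile near 100 has little room to rise.

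In EGF-BT474, 19 of the 111 regions (17.1%) rose in rank and 5 fell, against a background of 11.7% higher and 5.85% lower of 36820 shared regions (17.5% called in all). In HRG-BT474, 22 of 111 (19.8%) rose and 6 fell, with a background of 12.7% and 9.69% (22.4% in all). The median difference of the 111 regions was 0.02 points for EGF and 0.06 for HRG, and that of all shared regions −0.51 and −0.72. In EGF-BT474R, 13 of 81 (16%) rose and 3 fell, with a background of 11% and 8.49% (19.4% in all), and in HRG-BT474R 5 of 81 (6.17%) rose and none fell, with a background of 2.84% and 0.824% (3.67% in all). By family, 11 of 37 integrin beta, 4 of 41 integrin alpha and 4 of 33 laminin regions rose in EGF-BT474, and 11, 4 and 7 of them in HRG-BT474. In EGF-BT474R, 5 of 35 alpha, 5 of 25 beta and 3 of 21 laminin regions rose.

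The laminin receptor gene ITGA3 had the smallest p-values. A region 4.78 kb upstream of it (chr17:50050371-50052010) lay at percentiles of 91.2 to 93.0 (median 91.8) in BT474 control libraries, 93.4 to 98.7 (median 98.1) after EGF and 94.1 to 98.8 (median 98.3) after HRG. No ligand library overlapped a control library. The differences were 6.57 ± 0.311 points for EGF (adjusted p = 2.74e-07) and 6.96 ± 0.311 for HRG (adjusted p = 5.66e-08), and they were 3.27, 7.26 and 9.17 points at 1, 12 and 24 h of EGF. In BT474R the control libraries were already at 96.0 to 98.6, and EGF libraries lay at 98.8 to 99.3, for a difference of 2.65 ± 0.331 (adjusted p = 0.000121). HRG-BT474R, at 98.1 to 99.2, overlapped control, with a difference of 1.80 ± 0.331 (adjusted p = 0.0104).

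A second ITGA3 region, over an exon 8.84 kb into the gene and within 1 kb of the start of a shorter transcript (chr17:50064296-50065327), rose from 68.8 to 79.6 (median 73.4) in BT474 control libraries to 82.3 to 85.3 (median 83.9) after EGF and 81.9 to 85.5 (median 84.8) after HRG, again without overlap. The differences were 12.4 ± 1.24 (adjusted p = 2.79e-05) and 13.7 ± 1.24 (adjusted p = 8.12e-06). In BT474R the control libraries reached from 76.5 to 89.1 and the EGF libraries from 89.4 to 94.5, for a difference of 14.0 ± 1.26 (adjusted p = 1.06e-05). With HRG, at 85.2 to 91.9, the difference was 5.70 ± 1.26 (adjusted p = 0.0249). Another ITGA3 region, in an intron 3.44 kb from the start (chr17:50059100-50059716), rose by 13.2 ± 2.06 points in EGF-BT474, 12.8 ± 2.06 in HRG-BT474 and 19.9 ± 4.34 in EGF-BT474R (adjusted p = 0.000722, 0.000613 and 0.00556). In BT474 the 3 sets of libraries, 44.6 to 54.9 in control, 59.2 to 69.1 with EGF and 59.5 to 66.4 with HRG, showed no overlap between ligand and control. In EGF-BT474R this call did not pass without the 12 h libraries (adjusted p = 0.14, with a range of 0.00186 to 0.14 over 17 alternatives). The ITGA3 start region itself, near the top of every list, had differences of −0.005 and −0.011 points in EGF-BT474 and HRG-BT474, neither past the threshold.

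The largest difference in rank was seen in ITGB5, in an intronic region 22.5 kb from the gene start and within 1 kb of an annotated transcript start (chr3:124878528-124879293). In BT474 its percentile was 26.4 to 59.4 (median 40.4) in control, 69.5 to 83.3 (median 73.9) with EGF and 66.2 to 82.5 (median 76.8) with HRG, so that each ligand library was above every control library. The differences were 40.5 ± 3.16 points (adjusted p = 5.52e-06) and 43.0 ± 3.16 (adjusted p = 1.68e-06). At 1, 12 and 24 h they were 20.8, 44.2 and 56.5 points with EGF, where the 1 h value did not pass (adjusted p = 0.0517), and 20.97, 46.98 and 60.9 with HRG. The control libraries themselves differed with time, from 46.2 and 59.4 at 1 h to 26.4 and 31.2 at 24 h. In BT474R the region was listed in 2 of 6 control libraries, at 5.91 and 4.96, and in 6 of 6 libraries with either ligand, at 42.4 to 79.5 after EGF and 20.7 to 39.3 after HRG. It was thus not tested by rank in that line, and by presence the exact p was 0.0606 for both.

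ITGB6, the epithelial partner of ITGAV that activates latent TGF-beta, had 4 regions that rose in both ligand comparisons of BT474. In an intron 57.9 kb from the start (chr2:160141935-160142850), control libraries lay at 51.9 to 57.7, EGF libraries at 59.2 to 82.0 (median 76.6) and HRG libraries at 57.3 to 82.1 (median 75.3). The EGF libraries did not overlap control, and the difference was 21.2 ± 2.19 points for EGF (adjusted p = 3.53e-05) and 20.9 ± 2.19 for HRG (adjusted p = 2.34e-05). Of these, the 1 h differences were 5.31 and 6.78 points, neither past the threshold (adjusted p = 0.542 and 0.309), and those at 24 h 31.1 and 32.9. The BT474R differences were 20.7 ± 2.94 for EGF (adjusted p = 0.000311) and 13.8 ± 2.94 for HRG (adjusted p = 0.0213).

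A further ITGB6 region, in an intron 24.5 kb from the start (chr2:160175418-160176183), moved from 42.1 to 55.5 (median 47.2) in control to 56.0 to 78.1 (median 72.5) with EGF and 54.4 to 80.2 (median 73.0) with HRG in BT474, where the EGF libraries lay just above every control library and the HRG libraries overlapped them. The differences were 25.8 ± 2.99 (adjusted p = 8.50e-05) and 27.0 ± 2.99 (adjusted p = 3.51e-05). In BT474R, control libraries were higher, at 66.6 to 82.5 (median 69.8), and the EGF libraries at 73.8 to 85.0 and HRG libraries at 70.1 to 84.9 overlapped them. The differences of 8.13 ± 2.74 and 3.23 ± 2.74 did not pass (adjusted p = 0.0543 and 0.560). Another region, 5.28 kb upstream of ITGB6 (chr2:160204983-160206193), rose by 6.54 ± 0.543 points with EGF and 7.19 ± 0.543 with HRG in BT474 (adjusted p = 7.63e-06 and 2.06e-06), and by 5.64 ± 1.46 with EGF in BT474R (adjusted p = 0.0151). One 42.1 kb into the gene rose by 12.8 ± 2.46, 14.2 ± 2.46 and 9.71 ± 2.39 points in the same 3 comparisons (adjusted p = 0.00304, 0.00108 and 0.0115). The ITGB6 start region was open in 18 of 20 BT474 and 15 of 20 BT474R libraries at low rank (median percentile 19.9 and 21.2) and was not tested by rank.

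Among the laminin genes, an intronic LAMA5 region 16.8 kb from the gene start (chr20:62349979-62351088) rose in all 4 comparisons. LAMA5 encodes the alpha chain of laminin-511, the most widespread laminin of adult epithelia. In BT474 its percentiles were 14.1 to 38.6 (median 37.2) in control, 52.7 to 62.7 with EGF and 43.2 to 66.0 with HRG, without overlap, and the differences were 23.4 ± 3.51 (adjusted p = 0.000560) and 23.6 ± 3.51 (adjusted p = 0.000351). In BT474R the control libraries ran from 14.0 to 78.6, with 78.6 and 71.3 at 1 h and 14.0 and 29.0 at 12 h, where the lists were shortest. EGF libraries lay at 56.8 to 81.8 and HRG libraries at 65.1 to 73.5, and the differences of 23.5 ± 4.41 and 20.99 ± 4.41 (adjusted p = 0.00214 and 0.0198) did not pass without the 12 h libraries (adjusted p up to 0.283 and 0.766 over 17 alternatives each).

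In LAMA3, an intronic region 183.5 kb from the gene start and within 1 kb of the start of a shorter transcript (chr18:23872614-23873253) rose by 8.98 ± 1.499 points with EGF and 9.72 ± 1.499 with HRG in BT474 (adjusted p = 0.00119 and 0.000462) and by 16.3 ± 2.31 with EGF in BT474R (adjusted p = 0.000314). Its percentiles in BT474 were 64.0 to 72.4 in control, 70.8 to 80.2 with EGF and 74.0 to 80.1 with HRG, and only the EGF libraries overlapped control. At 12 h of EGF the difference in BT474 was 0.839 points (adjusted p = 0.873), against 10.45 at 1 h and 15.65 at 24 h. The LAMA3 region at the 5′ end of the gene was open in 20 of 20 BT474 and 18 of 20 BT474R libraries, and in BT474 its differences of −8.82 points for EGF and −0.27 for HRG did not pass (adjusted p = 0.125 and 0.968). A LAMB3 region over an exon, 1.07 kb into the gene (chr1:209651134-209651579), rose by 9.64 ± 2.17, 11.7 ± 2.17 and 6.36 ± 1.85 points in EGF-BT474, HRG-BT474 and EGF-BT474R (adjusted p = 0.00846, 0.00178 and 0.0280).

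ITGA6 carried the largest change in BT474R, in an intron 15.1 kb from the start (chr2:172441977-172442860). There the percentiles were 31 to 71.6 (median 44.4) in control, 63.7 to 77.3 (median 75.3) with EGF and 53.3 to 78.4 (median 65.5) with HRG. The differences were 28.8 ± 2.57 (adjusted p = 1.01e-05) and 17.2 ± 2.57 (adjusted p = 0.00370). The 2 control libraries at 1 h, at 71.6 and 69.3, overlapped the ligand libraries, and those at 12 and 24 h, at 31 to 49.1, did not. In BT474 this region was listed in 2 of 6 control libraries, at 3.46 and 12.7, and in 6 of 6 with either ligand, at 17.5 to 45.0 and 32.8 to 51.1, where the exact p was 0.0606. The start region of ITGA6 went the other way in EGF-BT474, with a difference of −4.53 ± 1.45 (adjusted p = 0.0473). With percentiles over the whole list, no region was called lower in that comparison.

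Of the 5 regions that rose in HRG-BT474R, none passed without the 12 h libraries. The calls of LAMA5 at 16.8 kb, ITGB6 at 57.9 kb and ITGA3 at 8.84 kb were each lost in 7 of 17 alternatives, of which 6 left out a single BT474R library, with adjusted p-values of up to 0.766, 0.636 and 0.442. Those of ITGA6 at 15.1 kb and ITGA3 upstream were lost in 1 of 17, with 0.266 and 0.345. Control 1 h replicate 2, HRG 1 h replicate 1, control 12 h replicate 1 and HRG 12 h replicate 2 were among the 6 libraries for each of the 3 regions. The others were replicate 1 of control and replicate 2 of HRG at 24 h for LAMA5 and ITGA3, and HRG 1 h replicate 2 and HRG 12 h replicate 1 for ITGB6.

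The other regions with the smallest p-values lay in ITGB4, ITGB2 and ITGA7. A region 2.13 kb into ITGB4, the hemidesmosomal beta chain (chr17:75723056-75723869), rose by 11.0 ± 2.70, 12.6 ± 2.70 and 11.1 ± 1.82 points in EGF-BT474, HRG-BT474 and EGF-BT474R (adjusted p = 0.0134, 0.00452 and 0.000875), while its start region did not pass in any of the 4 comparisons (differences of 1.55, 0.463, 3.77 and −0.246). ITGB2 encodes the beta chain of leukocyte integrins. A region 3.99 kb into the gene (chr21:44927522-44928473) rose from 15.3 to 39.6 in BT474 control libraries to 43.3 to 54.6 with EGF and 37.4 to 58.8 with HRG, where only the HRG libraries overlapped control, by 19.2 ± 3.91 and 23.9 ± 3.91 points (adjusted p = 0.00450 and 0.000715). Another ITGB2 region, at 20.3 kb (chr21:44910885-44912433), rose by 4.82 ± 0.957 points with EGF in BT474R (adjusted p = 0.00309), a call that did not pass without the 12 h libraries (adjusted p = 0.167, with a range of 0.00187 to 0.167 over 17 alternatives). A region 5.00 kb upstream of ITGA7, a muscle laminin receptor chain, and at the promoter of RDH5 (chr12:55720876-55721934), rose by 9.74 ± 1.83 points in the same comparison (adjusted p = 0.00220).

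**Figure D4:**
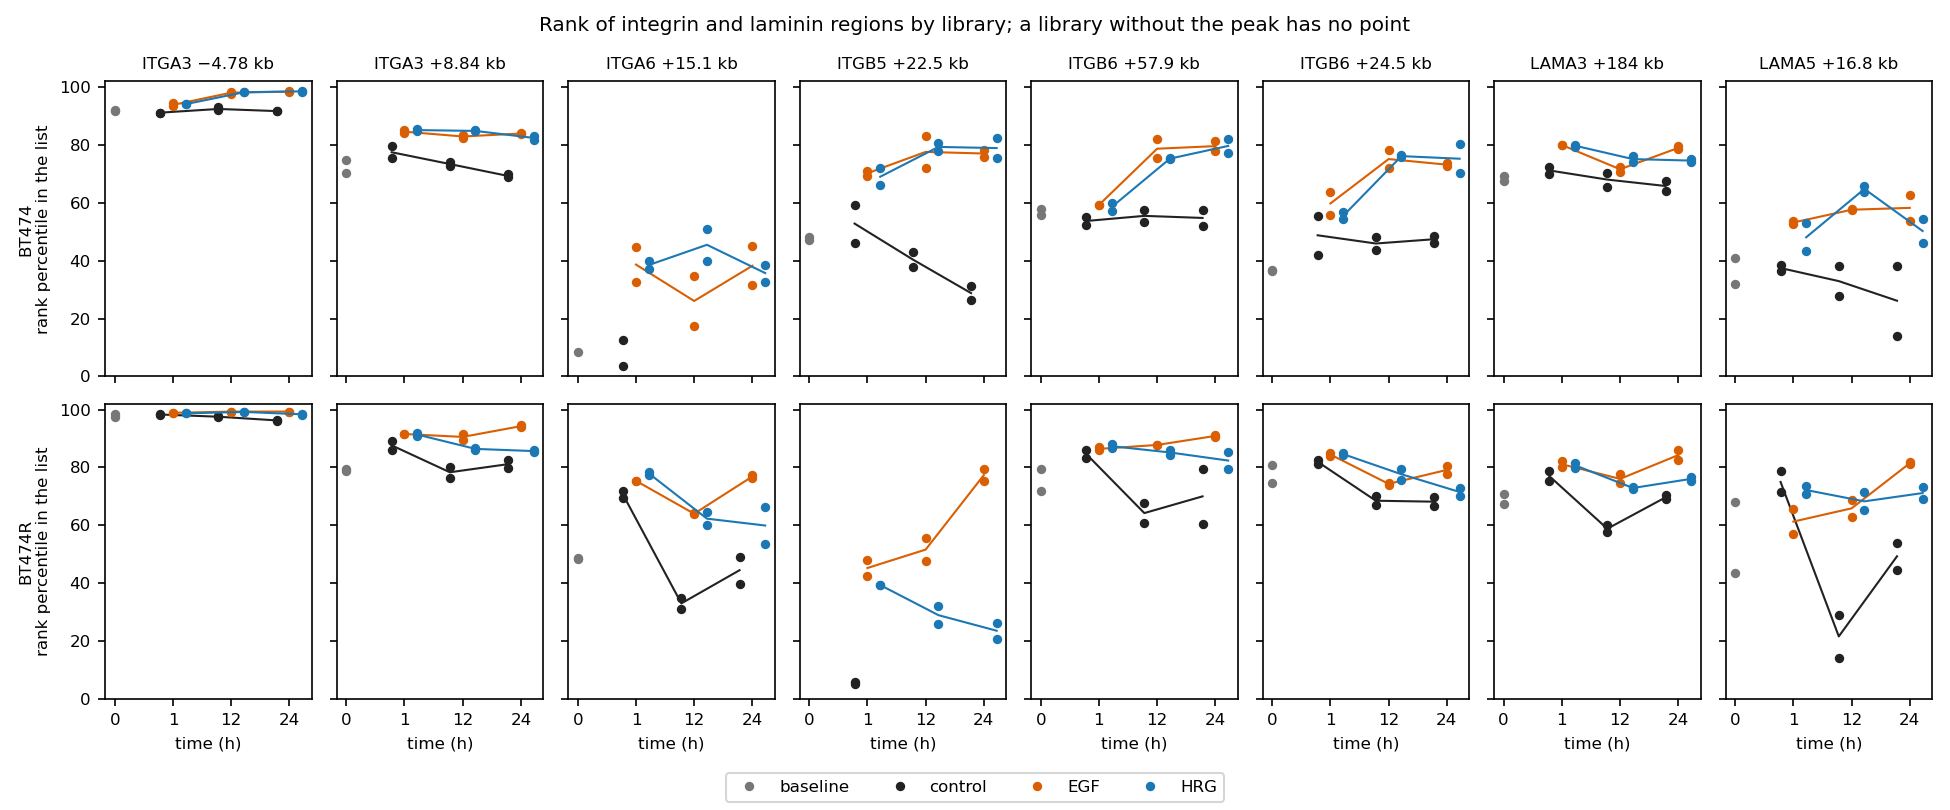
Rank percentile within the list (y axis) of 8 integrin and laminin regions (columns, with the distance from the gene start in kb) against time (x axis, h) in BT474 (top) and BT474R (bottom). Times are evenly spaced, points are libraries, and lines join the means of the listed libraries of an arm; in BT474 the EGF and HRG points of the ITGA3 and ITGB5 regions lie above all control points, and in BT474R the control points of ITGA6, ITGB6 and LAMA3 are highest at 1 h.

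Of the start regions, 21 of 25 could be tested by rank in BT474. With EGF, those of ITGB1, the most widely shared beta chain, at the 5′ end of the gene (7.13 ± 1.91, adjusted p = 0.0217), and ITGB2 (the region at 3.99 kb above) rose, and those of ITGA6 and ITGA11 fell, with a difference of −9.97 ± 3.16 points for ITGA11 (adjusted p = 0.0450). Neither fall was called with percentiles over the whole list. With HRG, ITGB1 rose by 10.5 ± 1.91 points (adjusted p = 0.00158) and ITGB2 as above, and none fell. In BT474R, 12 start regions were tested and 0 were called with either ligand. These counts are to be read against the shares of all shared regions called, given above for each comparison. Whether start regions differed from those shares was not tested. Falls in rank were smaller in number than rises and were spread over the genes: of the 13 regions lower in at least 1 comparison and higher in none, 3 belonged to ITGA5 and 2 to ITGA9. These 3 ITGA5 regions all lay downstream of the gene, and the one furthest from its start was at the ZNF385A promoter. An ITGA9 intron region (chr3:37668518-37669557) fell by 18.0 ± 3.14 points in HRG-BT474 (adjusted p = 0.00111). It was named here after its value was seen.

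Changes in rank were also tested at each time. In EGF-BT474, 5, 10 and 16 of 111 regions were higher at 1, 12 and 24 h, where 2.24%, 4.35% and 10% of all shared regions were, and 0, 4 and 2 were lower, where 1.95%, 1.36% and 4.98% were (4.19%, 5.71% and 15% in all). In HRG-BT474, 7, 12 and 16 were higher (5.1%, 6.42% and 10% of all) and 2, 1 and 2 lower (6.03%, 3.6% and 4.27%, or 11.1%, 10% and 14.3% in all). In EGF-BT474R, 0, 9 and 9 of 81 were higher (0.531%, 5.98% and 6.61% of all) and 0, 0 and 2 lower (0.591%, 3.24% and 4.15%, or 1.12%, 9.23% and 10.8% in all), and in HRG-BT474R the counts were 0, 4 and 0 higher (0%, 2.25% and 0.0637% of all) and 0 lower (0%, 0.58% and 0.0177%, or 0%, 2.83% and 0.0814% in all). Where limma called none, 11 regions at 1 h of EGF-BT474R and 4 and 5 regions at 1 and 24 h of HRG-BT474R had an unadjusted p under 0.05. Differences between the times were not tested.

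**Figure D5:**
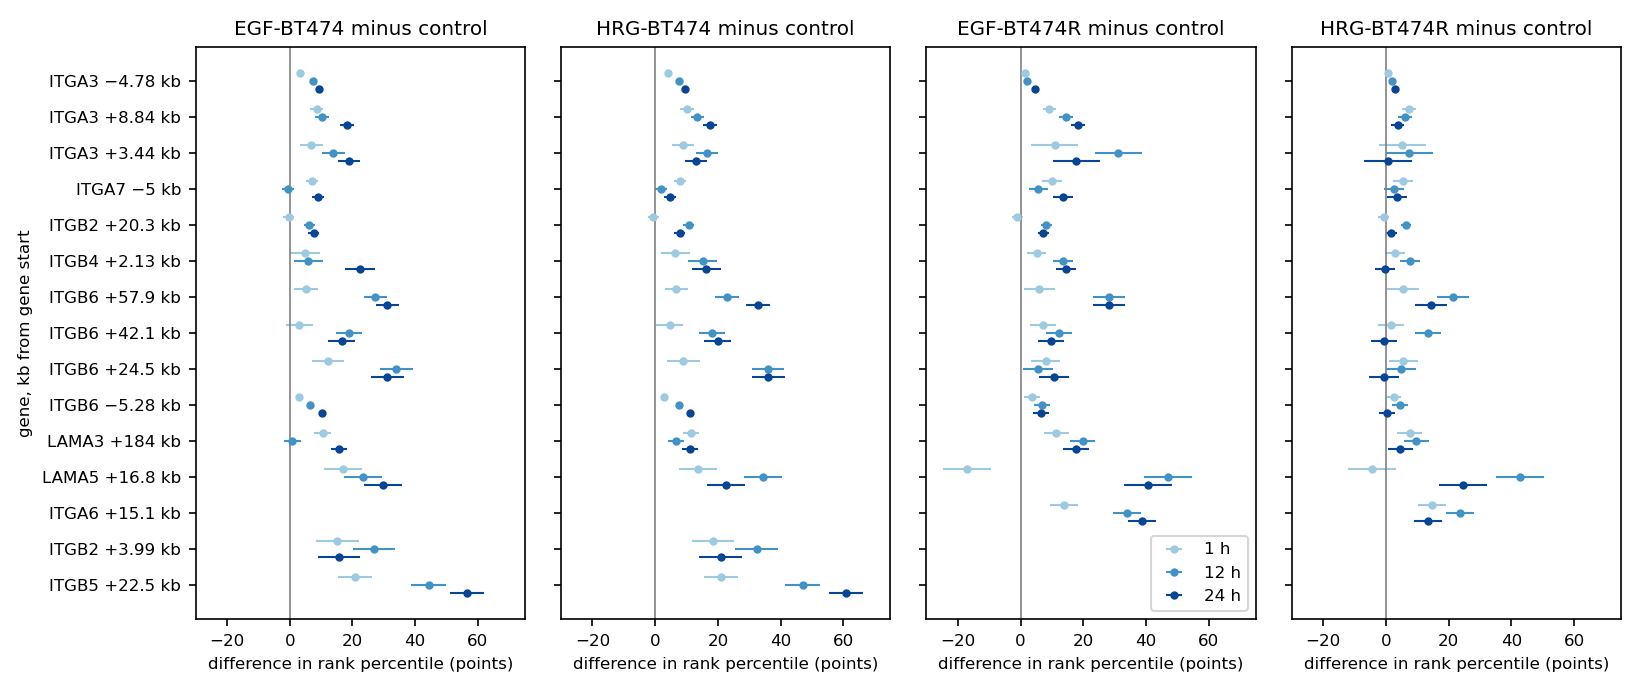
Difference in rank percentile, ligand minus control (x axis, points of the ranking among shared regions), at 1, 12 and 24 h (light to dark blue) for 15 integrin and laminin regions (y axis, with the distance from the gene start in kb) in the 4 ligand comparisons (panels). Bars are standard errors and a region that was not open in all 20 libraries of a line has no point; in BT474 the 24 h values reach 56.5 points with EGF and 60.9 points with HRG, for ITGB5.

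Without a ligand, the ranks of some of these regions also moved in BT474R. The difference between the lines in this was not tested. Control libraries of BT474 at 1, 12 and 24 h against baseline gave 0 called of 111 regions (limma; backgrounds 0.0733%, 0.168% and 0.755%, of which 0.0435%, 0.0435% and 0.133% higher and 0.0299%, 0.125% and 0.622% lower), with 8, 16 and 18 regions at an unadjusted p under 0.05. In BT474R, 3 of 81 regions were higher in control at 1 h than at baseline (background 0.835% higher and 0.74% lower, 1.57% in all): ITGB6 at 42.1 kb by 26.2 ± 4.14 points (adjusted p = 0.00837), ITGA6 at 15.1 kb by 25.6 ± 4.44 (adjusted p = 0.0135) and ITGA3 at 8.84 kb by 11.5 ± 2.18 (adjusted p = 0.0200). At 12 h, 2 were lower (background 0.308% higher and 0.605% lower, 0.913% in all), an ITGB5 intron region by 27.3 ± 5.16 points and a region upstream of ITGB7, at the RARG promoter, by 11.1 ± 1.97 (adjusted p = 0.0314 and 0.0247). At 24 h, 0 were called (background 1.03% higher and 2.34% lower, 3.37% in all), with 13 at an unadjusted p under 0.05. At 1 and 12 h, 11 and 14 of the 81 regions had an unadjusted p under 0.05. The 3 regions higher at 1 h were also named above for EGF-BT474R, and the same control libraries enter both comparisons.

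Whether a ligand acted differently on the 2 lines was tested on the 76 regions shared by all 40 libraries, as the difference in rank after a ligand in BT474R minus that in BT474. For EGF, 2 regions had a smaller rise in BT474R and 0 a larger one, against a background of 2.16% and 1.3% (3.46% in all) of 25166 shared regions. They were the ITGB6 region at 24.5 kb (−16.9 ± 4.34 points, adjusted p = 0.0304) and the ITGA3 region 4.78 kb upstream (−6.56 ± 0.580, adjusted p = 3.60e-07). For HRG the count was 4 smaller and 0 larger, against 1.32% and 0.29% (1.61% in all). In the ITGB6 region at 24.5 kb the difference was −24.3 ± 4.34 (adjusted p = 0.00279), in that 5.28 kb upstream of ITGB6 −7.49 ± 1.86 (adjusted p = 0.0390), in ITGA3 upstream −8.09 ± 0.580 (adjusted p = 1.31e-08) and in ITGA3 at 8.84 kb −11.7 ± 2.17 (adjusted p = 0.00383). Of these calls, that of ITGB6 at 24.5 kb for EGF was lost in 14 of 27 alternatives (adjusted p from 0.013 to 0.0744), that of ITGB6 at 5.28 kb for HRG in 19 (0.00572 to 0.0993), and that of ITGA3 upstream for EGF on both scales without an upper limit (2.18e-07 to 0.558). The median control percentile of each of the 4 regions was higher in BT474R than in BT474: 69.8 against 47.2 and 87.4 against 84.3 in ITGB6, and 97.5 against 91.8 and 81.3 against 73.4 in ITGA3.

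The lines themselves differed widely at these genes, and so did the genome. By presence in 20 BT474R against 20 BT474 libraries (Fisher's exact test, adjusted p under 0.05), 62 of 86 testable regions (72.1%) were called, 20 more often open in BT474R and 42 less often. The background was 71.7% of 32683 testable regions, 27.2% more and 44.6% less often open. ITGB5 had 9 regions less often and 2 more often open in BT474R, ITGAV had 4 less often, and ITGA1 and ITGB3, the vitronectin receptor beta chain, 3 each. ITGA9, which pairs with ITGB1, had 5 regions more often and 2 less often open. Per library, a mean of 15.4 ± 1.05 (SD, n = 20) of the 20 ITGB5 regions was open in BT474 and 10.2 ± 2.24 in BT474R. For ITGAV the means were 5.15 ± 0.671 and 2.55 ± 0.510 of 6 regions.

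A set of 5 intronic regions was open in 20 of 20 BT474 and 0 of 20 BT474R libraries, each with an exact p of 1.45e-11 (adjusted p 1.91e-10). They lay in LAMC3 (chr9:131068067-131068778, percentiles of 21.4 to 67.8 in BT474), ITGB5 (chr3:124786480-124787225, 29.6 to 57.5), ITGAV (chr2:186602417-186602734, 21.2 to 48.3), ITGB1 (chr10:32929692-32929946, 19.3 to 43.1) and ITGB4 (chr17:75749922-75750162, 0.19 to 30.5). The ITGB1 and ITGB4 calls did not pass when each list was limited to its 32479 highest peaks, while those of LAMC3, ITGB5 and ITGAV did. The ITGB5 gene held 3 more of the 10 regions with the smallest p, all open in 19 or 20 BT474 libraries and in at most 1 of BT474R. A LAMA3 region 13.8 kb from the start (chr18:23703038-23703380) was open in 19 and 0 libraries. That LAMA3 call and 1 of these 3 ITGB5 calls did not pass either when the lists were limited to equal numbers, where the LAMA3 region had a peak in 0 libraries of each line and the ITGB5 region in 1 of BT474 and 0 of BT474R. One region went the other way, in an ITGB2 intron (chr21:44897614-44898026), with a peak in 1 of 20 BT474 and 20 of 20 BT474R libraries at percentiles of 42.8 to 71.2 (exact p = 3.05e-10, adjusted p = 2.64e-09).

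By rank, 63 of the 76 regions shared by all libraries were called between the lines, 22 higher and 41 lower in BT474R, with a background of 41.5% higher and 42.5% lower (84% in all). The median difference was −2.73 points in these regions and −0.15 in all. The ITGB4 region at 2.13 kb was 38.7 ± 1.17 points higher in BT474R (adjusted p = 3.57e-19), with percentiles of 39.5 to 63.8 in BT474 and 60.5 to 85.0 in BT474R. The ITGB6 region at 57.9 kb was 29.6 ± 1.59 points higher, ITGB2 at 20.3 kb 17.9 ± 0.687, ITGA3 at 8.84 kb 15.3 ± 0.839 and ITGA3 upstream 7.05 ± 0.225. Lower in BT474R were a region in an intron of LAMB1, the beta chain of laminin-111 and laminin-511 (chr7:107951844-107953149, fell by 33.4 ± 1.55 points), ITGB5 at 63.8 and 66.3 kb (fell by 31.1 ± 1.70 and 23.7 ± 1.42), a region downstream of ITGA5 at the ZNF385A promoter (fell by 12.8 ± 0.753) and ITGA3 at 6.56 kb (fell by 10.3 ± 0.588). The adjusted p-values of these ranged from 8.96e-19 to 1.45e-13. Of 12 start regions tested, ITGB4 (6.30), LAMB3 (12.0) and LAMC1 (3.94 points) were higher in BT474R, and 7 were lower, among them ITGA7 (−25.2), ITGA2 (−22.0), ITGB5 (−17.0) and ITGA6 (−13.6).

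Regions of genes that act with integrins were taken by the same rule for comparison. Of 225 regions of 23 adhesion adaptors and kinases, such as TLN1 and ILK, 18 of 109 shared regions rose and 3 fell in rank in EGF-BT474, and 18 rose and 14 fell in HRG-BT474. Of all shared regions, 11.7% were higher and 5.85% lower in EGF-BT474, and 12.7% and 9.69% in HRG-BT474. In BT474R, 14 of 90 rose and 11 fell with EGF, and 4 rose and 1 fell with HRG, where 11% and 8.49%, and 2.84% and 0.824%, of all shared regions did. For 12 hemidesmosome and laminin partners the counts were 6 higher and 6 lower of 56 with EGF and 7 and 5 with HRG in BT474, and 6 and 3 of 47 with EGF and 1 and 0 with HRG in BT474R. For 16 other matrix ligands of integrins, such as FN1, they were 5 and 1, and 5 and 2, of 40 in BT474, and 4 and 2, and 1 and 0, of 24 in BT474R. By presence, 4 of 21 testable adaptor regions were more often open in EGF-BT474 and 4 of 14 in HRG-BT474, where 1 was less often open, against 1 of 3 and 0 of 2 for the partners and 1 of 6 and 0 of 5 for the ligands, and none of the 3 lists had a called region in BT474R with either ligand. The shares of all testable regions more often open were 18.3%, 20%, 3.67% and 2.31% in EGF-BT474, HRG-BT474, EGF-BT474R and HRG-BT474R.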

How the data were processed

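ATAC-seq of BT474 and BT474R cells was analysed from 40 lists of peaks, 1 per library. The authors trimmed adapters with Trim Galore 0.6.6, mapped reads with BBMap to hg38 (GRCh38.p13), and, after sorting by samtools, used Genrich for peak calling and for removal of mitochondrial and blacklisted reads, so that each deposited peak carries a score, the area under the curve of significance, which depends on the depth of its own library. No source used here states the options of Genrich, and the lists hold no counts. The depth of a library therefore bears on both presence and score. The deposited lists also give the summit of each peak.

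Peaks on chromosomes 1 to 22 and X were merged at an overlap of 1 bp or more, regions in at least 2 lists were kept, and genes were taken from GENCODE release 44 with 20 kb on either side. A promoter region lay within 1 kb of an annotated start, and the one nearest the 5′ end of the gene was used. Libraries were grouped by the line, treatment and time in their labels. Presence was compared with Fisher's exact test (two-sided, scipy 1.17.1). Scores of regions open in every library of a comparison were ranked within each library and compared with limma 3.58.1 (trended variance, Benjamini-Hochberg adjustment over all shared regions, called at an adjusted p under 0.05), with 1 mean per line, arm and time and ligand contrasts averaged over the times. Both procedures were tested on simulated data. Text names the start regions, and up to 10 called regions per comparison by smallest p. The sequence of 1 named region is not reported here. The genes, gene lists and motifs were chosen with earlier results of these data known. Alternatives were score and length limits, other region rules, other scales, a replicate block, leaving out libraries and, chosen after seeing the data, leaving out the 12 h libraries and all alternatives of the difference between lines.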

Additional observations from a re-analysis of the deposited data

Results flagged for a closer look

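The response of 4 regions to a ligand differed between the lines by a direct test, the limma contrast of the ligand difference in BT474R minus that in BT474. In the ITGB6 intron region 24.5 kb from the start, the EGF response was −16.87 ± 4.34 points (adjusted p = 0.0304) and the HRG response −24.3 ± 4.34 points (adjusted p = 0.00279) relative to BT474. The EGF value lost its call in 14 of 27 alternatives, each the loss of 1 of 24 libraries (adjusted p from 0.013 to 0.0744). It kept it without BT474 control 1 and 12 h replicate 1, EGF 1 and 24 h replicate 2 and EGF 12 h replicate 1, and without BT474R control 1, 12 and 24 h replicate 2 and EGF 12 and 24 h replicate 2. For the HRG value 0 of 27 lost it (0.000494 to 0.0085). In the ITGA3 region 4.78 kb upstream, the values were −6.556 ± 0.58 points for EGF (adjusted p = 3.6e-07) and −8.086 ± 0.58 for HRG (adjusted p = 1.31e-08). The EGF value lost its call on the 2 scales without an upper limit, normal scores and log2 score (adjusted p from 2.18e-07 to 0.558 over 27 alternatives), and the HRG value kept it in all 27 (6.99e-09 to 0.0021).

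For HRG, the ITGB6 region 5.28 kb upstream differed by −7.494 ± 1.86 points (adjusted p = 0.039) and lost its call in 19 of 27 alternatives (0.00572 to 0.0993). These were both scales without an upper limit and the loss of 1 library, except BT474 HRG 1 h replicate 2, control 12 h replicate 2 or HRG 24 h replicate 1, and BT474R control 1 or 12 h replicate 2, HRG 1 h replicate 1 or HRG 24 h replicate 2. The ITGA3 region at 8.84 kb differed by −11.71 ± 2.17 points (adjusted p = 0.00383) and kept its call in all 27 (0.00181 to 0.0199). Both lines were compared with their own controls, and the shortest of the 40 lists was that of BT474R control 12 h replicate 1. Its part in these differences was tested only by leaving that library out, as 1 of the alternatives.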

How the results depend on the processing

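No named call turned its direction under any alternative that was run. Repeats of the named presence calls kept their side of the threshold in 602 cases and lost it in 38, and those of the named rank calls in 1146 and 61. Most presence repeats belonged to calls between the lines, where each of 40 libraries was left out in turn. Repeats of named presence calls with gene bodies only used the same values and kept each call by construction. The named ligand calls by presence were all lost with scores of at least 400 and with equal numbers of top peaks. With gene bodies only, which removes regions by construction, presence calls came to 0 in EGF-BT474, 2 in HRG-BT474 and 1 in EGF-BT474R, and rank calls between the lines to 37. With 50% of a region to be covered, presence calls came to 4 in EGF-BT474 and 0 in HRG-BT474R. With scores of at least 400, they came to 4 in EGF-BT474 and 40 between the lines, and rank calls to 18 in HRG-BT474, 3 in HRG-BT474R and 36 between the lines (17 higher, 19 lower). With equal numbers of top peaks, 31 presence calls were made between the lines, and HRG-BT474 had 2 more and 2 less often open. With baseline and control libraries only, 33 presence calls were made between the lines. Without the 12 h libraries, chosen after seeing the data, presence calls came to 3 in HRG-BT474 and 0 in HRG-BT474R, with 1 more and 1 less often open in EGF-BT474R, and rank calls to 7 in EGF-BT474R and 0 in HRG-BT474R. With percentiles over the whole list, rank calls came to 10 in HRG-BT474R, and splits into higher and lower to 31 and 0 in EGF-BT474, 22 and 2 in HRG-BT474, 14 and 1 in EGF-BT474R and 15 and 47 between the lines. The EGF difference between lines had 1 call on the log2 score, also chosen after seeing the data. Other than where construction shows it, the cause was not tested.

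Replicate numbers were not treated as pairs in the main tests: deviations of same-numbered libraries from their group means correlated at −0.0595 to 0.423, not all above 0.1. Whether some groups shared a batch was not tested. With the replicate block, presence calls came to 2 in HRG-BT474, 0 in EGF-BT474R and 0 in HRG-BT474R, 2 in EGF-BT474 and 64 between the lines, and rank calls to 30, 28, 18, 5 and 64 in EGF-BT474, HRG-BT474, EGF-BT474R, HRG-BT474R and between the lines.

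Leaving out 1 library gave 2 to 5, 5 to 8, 2 to 4 and 1 to 6 presence calls in the 4 ligand comparisons in that order and 63 to 67 between the lines, and 18 to 39, 25 to 33, 13 to 16, 2 to 6 and 63 to 65 rank calls. The EGF difference between lines had 1 to 3 calls and the HRG difference 3 to 4. Presence calls rose to 5 without BT474 EGF 1 h replicate 2, EGF 12 h replicate 1 or control 1 h replicate 2, to 8 without either HRG-BT474 library at 1 h, and in EGF-BT474R to 4 without either BT474R control library at 1 h. In HRG-BT474R they came to 6 and 4 without these control libraries and to 2 without replicate 2 of HRG at 12 or 24 h. Rank calls in EGF-BT474 came to 39 (22 higher, 17 lower) without EGF 12 h replicate 1. In HRG-BT474R they came to 2 without control 1 h replicate 2, HRG 1 h replicate 1, control 12 h replicate 1 or HRG 12 h replicate 2, and to 3 without control 24 h replicate 1 or HRG 24 h replicate 2. The EGF difference had 1 call without any of 12 libraries: in BT474 control 1, 12 and 24 h replicate 2, control 24 h replicate 1, EGF 12 h replicate 2 and EGF 24 h replicate 1, and in BT474R control 1, 12 and 24 h replicate 1, both EGF 1 h libraries and EGF 24 h replicate 1. Depth is unknown, so a missing peak cannot be given a limit.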
